A study of Mus musculus with 16 samples.

Results

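The zinc finger genes of the mouse Zfp series with numbers 1 to 599 were described in B16-F10 melanoma cells treated with monoclonal antibodies. Members were all genes whose name was Zfp followed by such a number. No expression value entered this rule, but it was set with earlier results of these data known. There were 202 members among 49164 gene identifiers with values. B16-F10 is a mouse melanoma line, labelled wild type, and every group was the same line cultured for 24 hours with 1 antibody. The groups were Mel321-31, Mel322-34, Mel321-35 and MGO.53, the isotype control, an antibody of the same class that serves as the reference. Polyadenylated RNA was sequenced, and counts per gene were analysed for 4, 4, 3 and 4 libraries in that order. The series title speaks of decoy antibodies directed at HSP70 outside the cell. All libraries belong to batch 1 of the labels except Mel321-35 replicate 1, the sole batch 2 library, which gives levels here but entered no test. Mel321-35 replicate 2 was not analysed here. The labels call the libraries biological replicates and do not say whether the cultures were independent, so the p-values describe only the spread among these libraries.

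A classical zinc finger is a short fold held by 2 cysteines and 2 histidines around a zinc ion (C2H2), and strings of such fingers read DNA sequence. Many mouse Zfp genes also encode a KRAB box, which recruits the co-repressor Trim28 and with it silencing enzymes. KRAB zinc finger proteins are best known for silencing transposable elements and for keeping parental imprints. The Zfp name is historical, however, and also covers proteins that bind RNA, attach ubiquitin or serve the spindle.

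Translation of the longest annotated coding sequence, available for 196 members, bore out the zinc finger label for most members. In 188 of them at least 1 C2H2 finger was found. Over all 196 the median was 10 fingers, and the maximum was 33 in Zfp462. In 8 none was found, namely Zfp330, Zfp365, Zfp36, Zfp414, Zfp503, Zfp395, Zfp185 and Zfp474. Zfp36 instead carried the CCCH type of finger and is an RNA-binding protein, so "transcription factor" does not describe every member. A KRAB pattern was found in 80. The first pattern written for the KRAB box matched 0 members because of a spacing error, and it was replaced after that was seen. Of 196 members placed on the genome, 80 had another member as the next gene, and chromosome 7 alone held 55 members.

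Library totals ran from 31662059 to 37957845 counts with Mel321-31, 29068437 to 34974492 with Mel322-34, 26102935 to 35240988 with Mel321-35 and 19446531 to 33529927 with MGO.53. The mitochondrial share of counts was summed over mt-Nd1, mt-Nd2, mt-Nd4, mt-Nd5, mt-Co1, mt-Cytb and mt-Atp6 only, not over all mitochondrial genes. It ran from 1.85% to 2.05% with Mel321-31, 1.95% to 2.16% with Mel322-34, 1.84% to 2.16% with Mel321-35 and 1.95% to 2.47% with MGO.53. MGO.53 replicate 2, without which several calls were lost, had both the lowest total and the highest mitochondrial share, and the part of depth and of this share in the results was not tested. All 8 melanocyte markers were high, with mean levels between 584 and 12184 CPM, that is counts per 1000000 of a library. Epcam and Adgre1, defining markers of epithelial cells and macrophages, were at 0 in all 15 libraries. The 7 epithelial markers summed to 6.23 to 10.5 CPM with Mel321-31, 8.26 to 21.5 CPM with Mel322-34, 10.7 to 19.8 CPM in the batch 1 libraries of Mel321-35 and 15.2 to 26.4 CPM with MGO.53. The batch 2 library had 1.15 CPM of them. A set of 95 transcripts, picked because the batch 2 library nearly lacked them, followed the same order. They summed to 152 to 236 CPM with Mel321-31 and 204 to 568 CPM with Mel322-34. The sums were 282 to 448 CPM in the batch 1 libraries of Mel321-35 and 340 to 642 CPM with MGO.53. That shared order is partly built in. Msln, Krt8, Krt18 and Krt19, with mean levels of 3.74, 3.63, 3.03 and 1.51 CPM, made up most of the epithelial sum. These markers were also near 0 in the batch 2 library, so the epithelial sum and the set are not separate measures. No member was among the 95, and the part of these transcripts in the results was not tested beyond the fit with their amount as a covariate given beside the counts.

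Most members were expressed. Mean levels reached at least 10 CPM for 104 members, lay from 1 to under 10 CPM for 69 and stayed above 0 but under 1 CPM for 24. No read was counted in any library for the other 5, Zfp352, Zfp42, Zfp488, Zfp572 and Zfp583. Zfp42, also called Rex1, is a marker of pluripotent cells. After the filter on low counts 180 members were tested. The filter takes a gene that reaches a minimum level in as many libraries, of any groups, as the smallest group holds. A gene can thus pass through 1 group alone, and the 180 are not all members.

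The 8 most abundant members by CPM were Zfp106, Zfp207, Zfp451, Zfp24, Zfp445, Zfp91, Zfp148 and Zfp266, of which Zfp445 and Zfp266 carried the KRAB pattern. Zfp106, an RNA-binding protein needed in motor neurons and muscle, had the highest mean level at 257 CPM. Zfp207, which helps to attach chromosomes to the spindle, followed at 171 CPM. Scaled to transcript length, Zfp207 led with 52.1 CPM per kilobase, ahead of Zfp146 with 34.1, Zfp106 with 28.3 and Zfp346, a double-stranded RNA-binding protein, with 24.4. The median level of members with the KRAB pattern was 1.90 CPM per kilobase, against 4.44 in the 116 members without it.

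With Mel321-31, 6 members passed the test. Zfp445, Zfp451, Zfp24 and Zfp81 rose between 1.11- and 1.27-fold, and Zfp36 and Zfp57 fell. The counts were 4 higher and 2 lower of 180 members tested, by edgeR's quasi-likelihood test at a Benjamini-Hochberg adjusted p under 0.05, which called 3.53% of all 14633 genes tested, 1.41% higher and 2.13% lower. At 3.33%, the members' share was near that background. In such bulk RNA, fewer cells expressing a gene and less RNA per cell cannot be told apart. The libraries of the Mel321-31 and MGO.53 groups did not overlap for 17 members, 12 of them higher and 5 lower, against 9.98% of all genes, 4.61% higher and 5.38% lower.

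Zfp36, known as tristetraprolin, binds AU-rich elements in messenger RNAs and promotes their decay. Its level was 8.13, 7.77, 7.50 and 8.13 CPM with Mel321-31, against 9.38, 12.7, 9.81 and 9.54 CPM with MGO.53. Every Mel321-31 library was below every MGO.53 library, and MGO.53 replicate 2 stood above its group. The log2 fold change was -0.38 ± 0.10 (SE; edgeR adjusted p = 0.0324). Without MGO.53 replicate 2 the call was lost, and the log2 fold change was -0.28. The call was also lost without Mel321-31 replicate 2, 3 or 4 or MGO.53 replicate 4, with adjusted p from 0.0538 to 0.163 over all 5. In Mel322-34 the level was 8.37, 8.10, 8.13 and 9.50 CPM, a difference from MGO.53 of -0.27 ± 0.10 on the log2 scale that missed the threshold (edgeR adjusted p = 0.106).

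Zfp57 and Zfp445 both maintain parental imprints, and they moved in opposite directions with Mel321-31. Zfp57 had 2.57, 2.26, 2.62 and 2.11 CPM with Mel321-31, against 3.52, 3.67, 3.65 and 3.12 CPM with MGO.53. The groups did not overlap, and the log2 fold change was -0.54 ± 0.16 (edgeR adjusted p = 0.0472). Its level with Mel322-34 was 3.44, 3.63, 2.81 and 3.26 CPM, which overlapped the MGO.53 libraries. The direct comparison of Mel321-31 with Mel322-34 gave -0.46 ± 0.15 (edgeR adjusted p = 0.548). Of 14 fits that each left out 1 library, 9 lost the Zfp57 call, with adjusted p from 0.0551 to 0.164. These were the fits without Mel321-31 replicates 2, 3 and 4, Mel322-34 replicates 1 and 4, and each of the 4 MGO.53 replicates.

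Zfp445 had 87.7, 100.8, 102 and 102 CPM with Mel321-31, against 90.3, 78.0, 82.4 and 85.1 CPM with MGO.53. Mel321-31 replicate 1 lay within the MGO.53 range, and the other 3 lay above it. The log2 fold change was 0.22 ± 0.049 (edgeR adjusted p = 0.00881). Without MGO.53 replicate 2 the adjusted p was 0.0588, and no other left-out library ended this call. With Mel322-34 the level was 93.3, 98.4, 100.8 and 100.2 CPM, and all 4 libraries lay above the MGO.53 group. That log2 fold change was 0.22 ± 0.049 (edgeR adjusted p = 0.00724), and it stayed past the threshold under all 28 alternatives run, with adjusted p of at most 0.0479. Zfp568, a KRAB protein that represses a placental Igf2 transcript, averaged 30.2 ± 0.67 CPM with Mel321-31, 31.1 ± 1.4 CPM with Mel322-34 and 28.3 ± 2.7 CPM in the MGO.53 group (SD over n = 4 libraries each), and passed no test.

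Zfp451, whose human counterpart is a SUMO ligase, rose with both antibodies. Its level was 97.0, 110.5, 99.5 and 107.5 CPM with Mel321-31 and 97.6, 97.2, 104.8 and 107.6 CPM with Mel322-34, against 90.4, 93.7, 88.4 and 89.3 CPM with MGO.53. All 8 antibody libraries were above all 4 MGO.53 libraries. The log2 fold changes were 0.20 ± 0.045 with Mel321-31 (edgeR adjusted p = 0.0126) and 0.17 ± 0.045 with Mel322-34 (edgeR adjusted p = 0.0212). These comparisons share the MGO.53 libraries, so they are not independent of each other. The Mel321-31 call was lost without Mel321-31 replicate 2 or 4 or MGO.53 replicate 4, with adjusted p from 0.0521 to 0.0837. The Mel322-34 call was lost without Mel322-34 replicate 3 or 4 or MGO.53 replicate 3 or 4, with adjusted p from 0.0570 to 0.0822.

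Zfp81, a member with the KRAB pattern and 11 fingers, also rose with both. It had 15.5, 15.2, 16.2 and 15.4 CPM with Mel321-31 and 16.5, 15.6, 16.5 and 14.2 CPM with Mel322-34, against 13.23, 12.03, 13.19 and 10.38 CPM with MGO.53. No antibody library of these groups reached down to the MGO.53 range. The log2 fold changes were 0.35 ± 0.091 with Mel321-31 (edgeR adjusted p = 0.0306) and 0.36 ± 0.092 with Mel322-34 (edgeR adjusted p = 0.0178). The Mel321-31 call was lost without Mel321-31 replicate 2, 3 or 4 or MGO.53 replicate 2 or 4, with adjusted p from 0.0775 to 0.130. The Mel322-34 call was lost without Mel322-34 replicate 3 or MGO.53 replicate 2 or 4, with adjusted p from 0.0550 to 0.0795.

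Zfp24, a DNA-binding protein required for myelination in mice, rose with Mel321-31. Its level was 93.7, 102.9, 100.6 and 97.5 CPM, against 91.45, 84.60, 93.25 and 86.42 CPM with MGO.53, with no overlap. The log2 fold change was 0.15 ± 0.041 (edgeR adjusted p = 0.0412), and it was lost without Mel321-31 replicate 2, 3 or 4 or MGO.53 replicate 2 or 4, with adjusted p from 0.0905 to 0.169. With Mel322-34 it was 0.12 ± 0.042 (edgeR adjusted p = 0.0711).

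**Figure D1:**
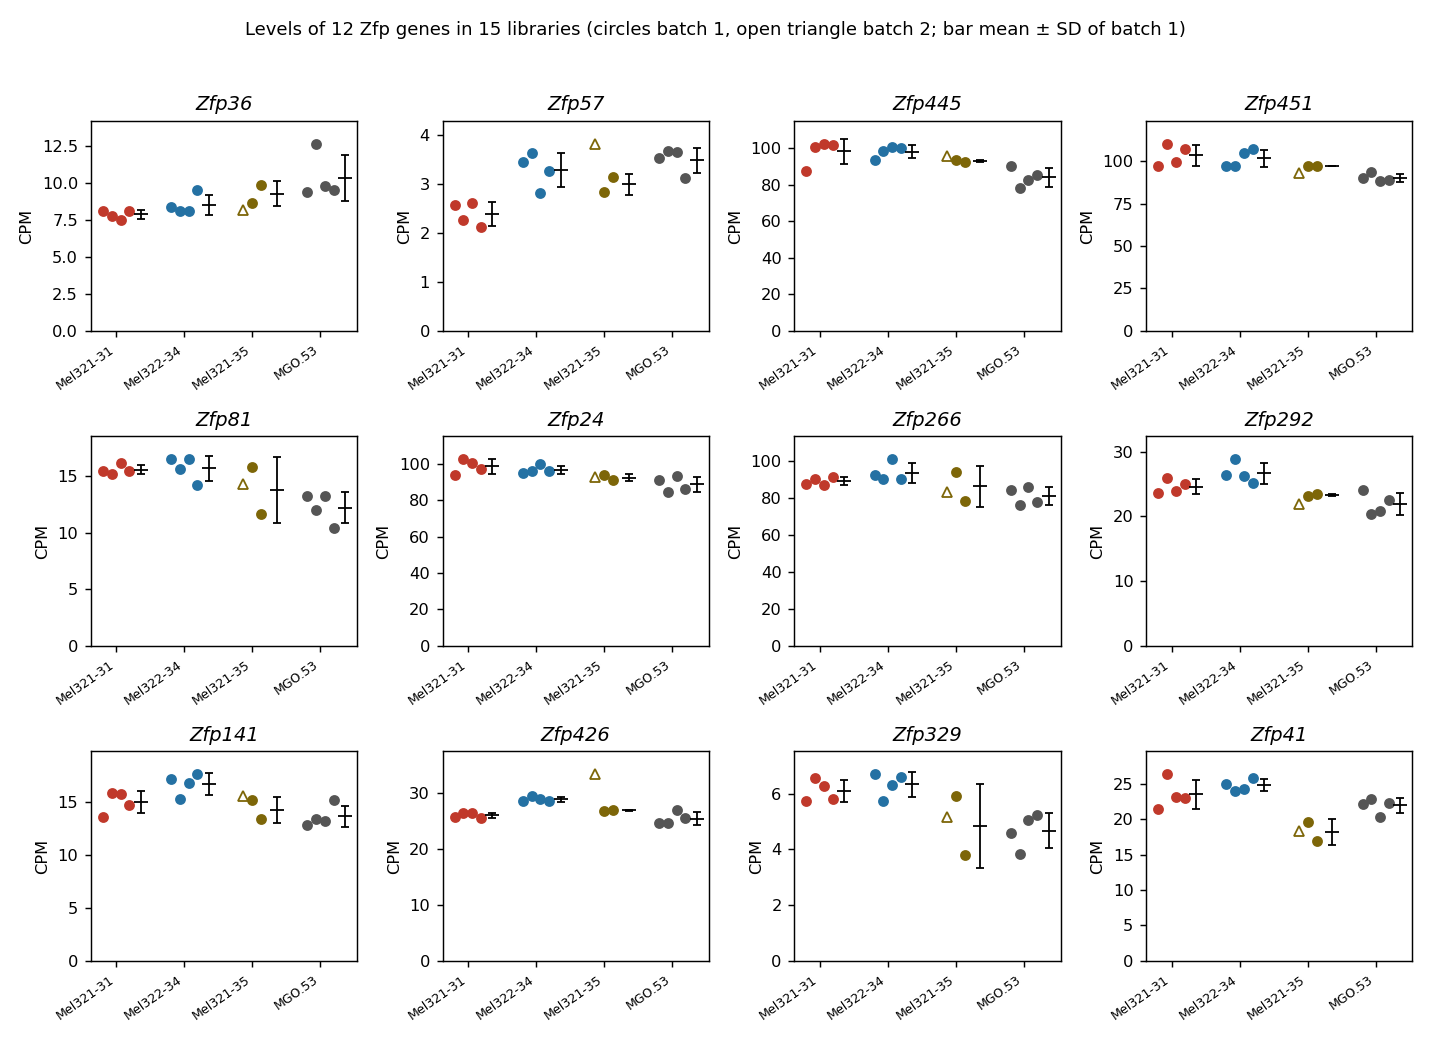
Levels in CPM (vertical axes, from 0) of 12 members in every library, by antibody; filled circles are batch 1 libraries, the open triangle is the batch 2 library, and bars give the mean and SD of the batch 1 libraries. Zfp36 and Zfp57 sit lower with Mel321-31 than with MGO.53, and for Zfp451 and Zfp81 all 8 libraries of Mel321-31 and Mel322-34 lie above the 4 of MGO.53.

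The number of Mel321-31 calls depended on single libraries. It was 10 without Mel321-31 replicate 1, 1 without Mel321-31 replicate 2, 2 without Mel321-31 replicate 3, and 1 each without Mel321-31 replicate 4, MGO.53 replicate 2 or MGO.53 replicate 4. Calls over all genes moved too, from 517 to 1238, 136, 253, 218, 163 and 187 in the same order. With the amount of the 95 transcripts as a covariate no member was called, and 5 of all 14633 genes were. In that fit the antibody and the covariate cannot be told apart in full, since all Mel321-31 libraries held less of these transcripts than every MGO.53 library.

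With Mel322-34, 8 members rose and 0 were called lower. The 8 were Zfp445, Zfp451 and Zfp81, described above, with Zfp266, Zfp292, Zfp141, Zfp426 and Zfp329. The calls amounted to 4.44% of the 180 members tested, against 6.87% of all genes called in either direction with 4.03% higher and 2.84% lower, so the share of higher calls was near the background. The libraries did not overlap for 25 members, 23 higher and 2 lower, against 12.9% of all genes, 7.03% higher and 5.92% lower.

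Zfp292, whose longest transcript has 9986 bases, had 26.4, 28.9, 26.2 and 25.1 CPM with Mel322-34, against 24.1, 20.3, 20.8 and 22.5 CPM with MGO.53. The groups did not overlap. Its log2 fold change was 0.28 ± 0.066 (edgeR adjusted p = 0.0117), with an adjusted p of 0.0533 without MGO.53 replicate 2. Zfp266, a KRAB member, had 92.5, 90.2, 101.4 and 90.4 CPM with Mel322-34, against 84.5, 76.5, 86.1 and 77.8 CPM with MGO.53. All Mel322-34 libraries were higher, and the log2 fold change was 0.20 ± 0.052 (edgeR adjusted p = 0.0181). The Zfp266 call was lost without Mel322-34 replicate 3 or MGO.53 replicate 2 or 4, with adjusted p from 0.0687 to 0.0952.

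The other 3 rose near the threshold. Zfp141, a KRAB member, averaged (SD, n = 4 each) 16.7 ± 1.0 CPM with Mel322-34 and 13.6 ± 1.0 CPM with the isotype control, a log2 fold change of 0.29 ± 0.080 (edgeR adjusted p = 0.0265). Zfp426, also a KRAB member, averaged (SD, n = 4 each) 28.8 ± 0.42 CPM with Mel322-34 and 25.4 ± 1.1 CPM with the isotype control, a log2 fold change of 0.18 ± 0.056 (edgeR adjusted p = 0.0448). Zfp329 averaged (SD, n = 4 each) 6.34 ± 0.45 CPM with Mel322-34 and 4.67 ± 0.63 CPM with the isotype control, a log2 fold change of 0.43 ± 0.13 (edgeR adjusted p = 0.0448). In each the groups did not overlap. Of the 14 fits that left out 1 library, Zfp141 lost its call in 6, those without Mel322-34 replicates 1, 3 and 4 and MGO.53 replicates 1, 2 and 3, with adjusted p from 0.0545 to 0.0759. Zfp329 lost it in 10, those without Mel321-31 replicates 2, 3 and 4, Mel322-34 replicates 1, 3 and 4 and each MGO.53 replicate, with adjusted p from 0.0522 to 0.152. Zfp426 lost it in 12, all but those without Mel321-31 replicate 1 and MGO.53 replicate 3, with adjusted p from 0.0514 to 0.124.

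Other members came close with Mel322-34. Zfp106 had a log2 fold change of 0.11 ± 0.035 (edgeR adjusted p = 0.0515), Zfp148, a GC-box binding factor, 0.16 ± 0.052 (edgeR adjusted p = 0.0535) and Zfp462, a chromatin regulator, 0.22 ± 0.070 (edgeR adjusted p = 0.0569). The number of calls was 16 without Mel321-31 replicate 1, 5 without Mel322-34 replicate 1, 2 without Mel322-34 replicate 3, 2 when MGO.53 replicate 2 was left out and 3 when its replicate 4 was. Calls over all genes moved too, from 1005 to 1451, 947, 327, 397 and 504 in the same order. DESeq2 called 13 of 153 members and 1351 of 10358 genes. With the amount of the 95 transcripts as a covariate the calls were 3, namely Zfp445, Zfp292 and Zfp217, beside 371 of 14633 genes.

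With Mel321-35 edgeR called 0 of 180 members, at n = 2 in the test, against 0.041% of all genes. An unadjusted edgeR p under 0.05 was found for 16 of 180 members and 1542 of 14633 genes. DESeq2 called 0 of the 47 members to which it gave an adjusted p, and 87 of 6408 genes. Libraries did not overlap for 29 members, against 20.4% of all genes. The called members of the other antibodies differed from MGO.53 on the log2 scale by 0.14 ± 0.060 for Zfp445, 0.11 ± 0.055 for Zfp451, 0.18 ± 0.11 for Zfp81, -0.15 ± 0.13 for Zfp36 and -0.22 ± 0.19 for Zfp57.

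Between antibodies 1 difference passed. Zfp41 had 24.99, 23.92, 24.25 and 25.82 CPM with Mel322-34, against 19.5 and 16.9 CPM in the batch 1 libraries of Mel321-35, with 18.3 CPM in the batch 2 library. The groups did not overlap, and the log2 fold change was 0.44 ± 0.087 (edgeR adjusted p = 0.0251). MGO.53 lay between them, at 22.2, 22.9, 20.3 and 22.3 CPM, and neither antibody passed the threshold against it, with log2 differences of 0.18 ± 0.070 for Mel322-34 and -0.26 ± 0.088 for Mel321-35. The test called 0.26% of all genes in this comparison. The call was lost without Mel322-34 replicate 1 or 3 or Mel321-35 replicate 4, with adjusted p from 0.0507 to 0.906. Mel321-31 against Mel321-35 called 0 members by edgeR and DESeq2, and edgeR called 0.103% of all genes. An unadjusted edgeR p under 0.05 was found there for 8 of 180 members and 1179 of 14633 genes. Without Mel321-31 replicate 1, edgeR called 1 member in that comparison, Zfp41, and 45 genes of any kind. Mel321-31 against Mel322-34 called 0 members by edgeR and DESeq2, and edgeR called 0.0205% of all genes. There 13 of 180 members and 1019 of 14633 genes had an unadjusted edgeR p under 0.05.

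Beyond single genes, the family as a whole lay slightly higher with Mel322-34. Its 4 libraries were all above the 4 of MGO.53 in summed level and in median. Mel321-31 replicate 1 and Mel321-35 replicate 4 lay within the MGO.53 range in both. The batch 2 library, Mel321-35 replicate 1, had a summed level of 4115 CPM, below every MGO.53 library. Its median was 0.006, within the MGO.53 range. The summed level of all members was 4286 ± 89 CPM with Mel321-31, 4368 ± 44 CPM with Mel322-34 and 4162 ± 25 CPM in the MGO.53 group (SD over n = 4 libraries each). The median log2 fold change of the members tested was 0.034 with Mel321-31, 0.072 with Mel322-34 and 0.042 with Mel321-35, against medians of all genes tested of -0.001 in each. Positive fold changes were held by 113, 121 and 109 of 180 members in the same order, and by 49.6%, 49.7% and 49.7% of all genes. The Mel321-35 median was 0.0004 without Mel321-35 replicate 3. No test was made of the median, since members are not replicates.

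**Figure D2:**
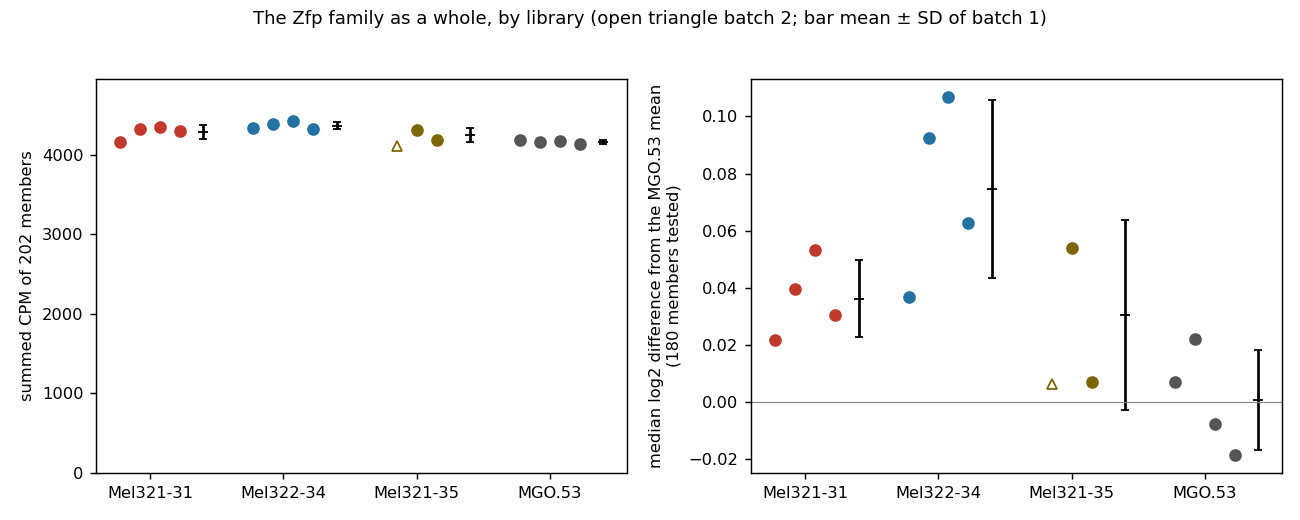
The Zfp family by library: summed CPM of the 202 members (left) and the median over 180 members of the log2 difference from the MGO.53 mean (right), with bars for the mean and SD of the batch 1 libraries and an open triangle for the batch 2 library. The 4 Mel322-34 libraries lie between 0.037 and 0.107 on the right, and the 4 MGO.53 libraries between -0.019 and 0.022.

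Members with the KRAB pattern lay higher than the others. Their median log2 fold change was 0.079 with Mel321-31, 0.111 with Mel322-34 and 0.087 with Mel321-35 over 70 members tested. In the 107 tested members without it the medians were 0.016, 0.027 and 0.007 in the same order. The median GC content of the transcripts was 43.0% in the 80 KRAB members, against 48.6% in the 116 without the pattern. With the trend on GC content removed from each library, the KRAB medians were 0.035, 0.051 and 0.043, against 0.0099, 0.026 and 0.00049 in members without it. A looser KRAB pattern, which shared 65 members with the stricter one, gave 0.039 with it and 0.031 without it for Mel321-31, so that split depended on the pattern. For Mel322-34 the looser pattern gave 0.101 with it and 0.026 without it, and for Mel321-35 0.071 with it and 0.013 without it. Members with at least 10 fingers had medians of 0.046, 0.098 and 0.068 in the same order of antibodies, against 0.018, 0.024 and 0.016 for those with 1 to 9.

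**Figure D3:**
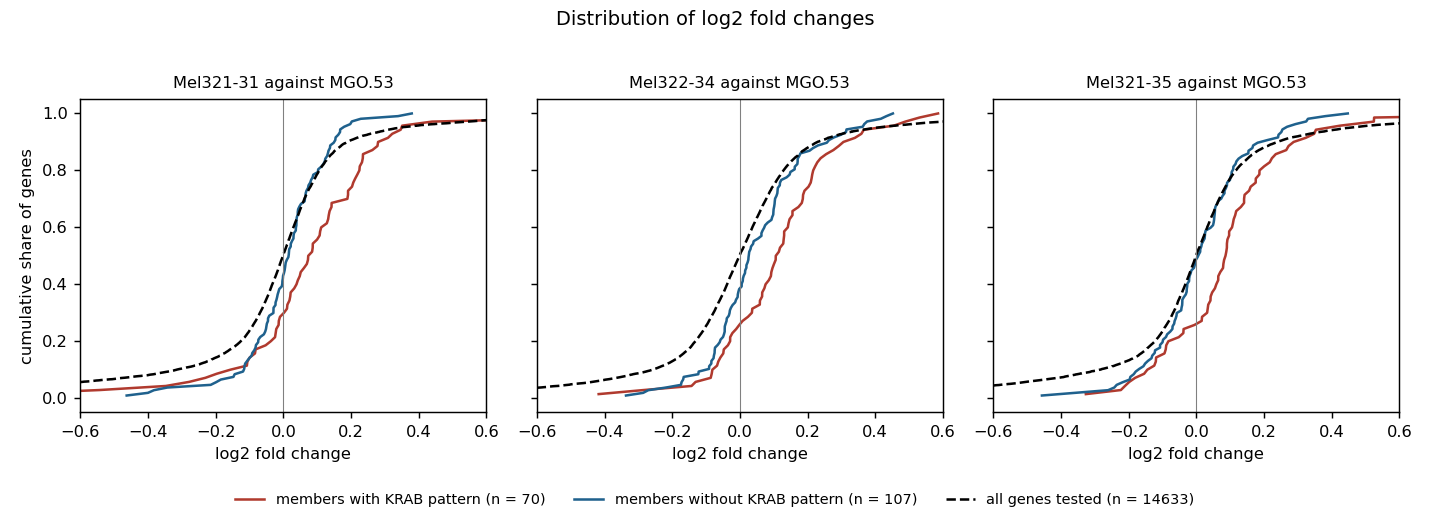
Cumulative share of genes (vertical axis) by log2 fold change (horizontal axis, shown from -0.6 to 0.6) for members with the KRAB pattern, members without it and all genes tested, for each antibody against MGO.53. The curve of the 70 KRAB members lies to the right of the other curves over most of the range.

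Transcript length and GC content moved with these differences. The members tested had a median transcript length of 3817 bases and a median GC content of 45.9%, against 3117 bases and 49.6% in all genes tested. All 8 members called with Mel322-34 were in the longest of 3 equal length classes, which held 76 members, and also in the lowest of 3 GC classes, which held 98. In the longest class 496 of 4869 genes of any kind were called higher with Mel322-34, and in the shortest 9 of 4872. Within the longest class the median log2 fold change with Mel322-34 was 0.107 for members and 0.062 for all genes, and within the lowest GC class it was 0.113 for members and 0.058 for all genes. With Mel321-31 the 4 members called higher were likewise in the longest class, while Zfp36 and Zfp57 were in the middle one.

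When the trend with length was removed from each library, Mel321-31 called 2 members, Zfp445 and Zfp36, and Mel322-34 called 1, Zfp445. With the trend on GC content removed, Mel321-31 called Zfp445 alone, and Mel322-34 called Zfp445, Zfp469 and Zfp207, the last of these lower. Over all genes, the calls with Mel321-31 were 440 after the length correction and 265 after the GC correction. With Mel322-34 they were 412 and 558. Some lost calls kept most of their size. Zfp57 with Mel321-31 had a log2 fold change of -0.53 after the length correction (edgeR adjusted p = 0.0597) and -0.58 after the GC correction (edgeR adjusted p = 0.0509). Zfp141 with Mel322-34 had 0.27 after the length correction (edgeR adjusted p = 0.0526). Zfp451 with Mel322-34, by contrast, had 0.04 after it (edgeR adjusted p = 0.747). The median of the members was 0.0234 with Mel321-31 and 0.0438 with Mel322-34 after the length correction, and 0.0128 with Mel321-31 and 0.0395 with Mel322-34 after the GC correction. After the GC correction, positive fold changes were held by 100 of 180 members with Mel321-31, 122 with Mel322-34 and 102 with Mel321-35. Of all genes 49.3%, 48.8% and 49.1% were positive in the same order. After the length correction the members' counts were 110, 117 and 106, beside 49.2%, 49.5% and 49.1% of all genes.

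**Figure D4:**
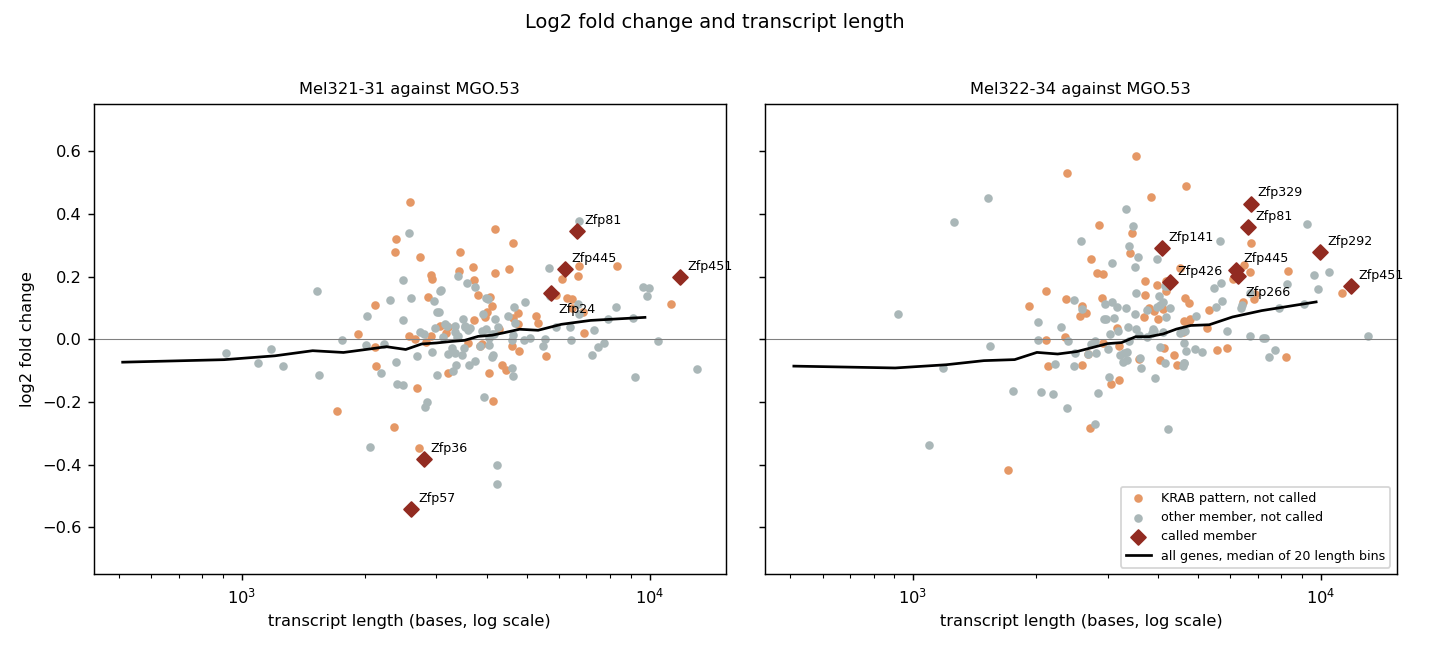
Log2 fold change (vertical axis) against transcript length in bases (horizontal axis, log scale) for the members tested with Mel321-31 and with Mel322-34; diamonds are called members, orange points carry the KRAB pattern, and the line is the median of all genes in 20 length bins. The line climbs with length in both panels, and 3 members of the Mel321-31 panel lie outside the range shown.

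Among the partners of KRAB proteins, 1 of 26 co-repressor genes passed in these comparisons. It was Cbx5, a heterochromatin protein, with a log2 fold change of 0.15 ± 0.038 with Mel322-34 (edgeR adjusted p = 0.0202). That is 3.85% of the 26 called higher with Mel322-34, near the share of all genes given below. With Mel321-31, 0 were called, against 3.53% of all genes. Trim28, the partner of the KRAB box, had log2 fold changes of -0.02 ± 0.032 with Mel321-31 and -0.06 ± 0.032 with Mel322-34, and Setdb1, the histone methyltransferase it recruits, 0.03 ± 0.046 and 0.02 ± 0.046. The higher-numbered genes of the series, Zfp600 to Zfp999, had medians of 0.084 with Mel321-31, 0.099 with Mel322-34 and 0.059 with Mel321-35 over 136 genes tested. With Mel322-34, 10 of them (7.35%) were called higher and 1 (0.735%) lower, against 4.03% and 2.84% of all genes. The Zbtb genes, which carry a BTB domain in place of KRAB, had medians of -0.012, 0.023 and -0.018 over 33 genes tested, and 2 of them (6.06%) were called higher with Mel322-34.

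Of 9 listed members that act on RNA, ribosomes, ubiquitin or the spindle, 1 was called lower with Mel321-31, Zfp36, against 2.13% of all genes, and 0 were called with Mel322-34 or Mel321-35, against 6.87% and 0.041% of all genes. A list of 9 is too short to read against these shares. Zfp598, the ubiquitin ligase that marks collided ribosomes, averaged 77.5 ± 2.2 CPM with Mel321-31, 79.6 ± 2.6 CPM with Mel322-34 and 82.0 ± 3.6 CPM in the MGO.53 group (SD over n = 4 libraries each). Zfp91, a ubiquitin ligase, averaged 88.6 ± 6.5 CPM with Mel321-31, 95.2 ± 3.6 CPM with Mel322-34 and 88.6 ± 1.7 CPM in the MGO.53 group (SD over n = 4 libraries each). Zfp503, a developmental repressor with no C2H2 finger found, had a log2 fold change of -0.46 ± 0.16 with Mel321-31 that missed the threshold (edgeR adjusted p = 0.112).

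Promoters are shown for 4 members called with Mel321-31, namely Zfp36, which fell, and 3 that rose with both Mel321-31 and Mel322-34, so that their sequence can be set beside their direction. Each line gives the 250 bases before the transcription start in RefSeq (build GRCm38.p6, minus strand, 5′ to 3′), and capitals mark motif matches. The genes were chosen because they were called, and the motifs were chosen after these sequences had been read, so a match supports nothing about a factor.
Zfp36, chr7:28379229-28379478: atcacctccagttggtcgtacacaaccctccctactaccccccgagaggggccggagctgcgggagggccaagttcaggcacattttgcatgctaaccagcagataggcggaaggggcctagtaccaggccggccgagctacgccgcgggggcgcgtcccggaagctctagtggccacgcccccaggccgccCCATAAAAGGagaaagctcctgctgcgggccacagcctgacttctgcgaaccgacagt
Zfp445, chr9:122866007-122866256: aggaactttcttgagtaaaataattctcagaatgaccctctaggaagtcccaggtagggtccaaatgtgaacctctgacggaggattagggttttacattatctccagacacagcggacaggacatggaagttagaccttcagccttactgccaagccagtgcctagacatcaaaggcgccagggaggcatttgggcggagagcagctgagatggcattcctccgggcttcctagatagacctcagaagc
Zfp451, chr1:33814596-33814845: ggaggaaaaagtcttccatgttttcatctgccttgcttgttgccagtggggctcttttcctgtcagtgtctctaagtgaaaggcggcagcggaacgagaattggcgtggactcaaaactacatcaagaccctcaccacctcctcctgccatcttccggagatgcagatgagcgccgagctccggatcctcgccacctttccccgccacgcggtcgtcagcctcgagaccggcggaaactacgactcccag
Zfp81, chr17:33358879-33359128: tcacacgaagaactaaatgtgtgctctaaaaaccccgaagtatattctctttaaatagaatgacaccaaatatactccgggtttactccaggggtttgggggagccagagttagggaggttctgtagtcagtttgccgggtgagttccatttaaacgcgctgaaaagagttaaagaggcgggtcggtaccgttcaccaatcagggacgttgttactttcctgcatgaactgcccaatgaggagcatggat

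The promoter of Zfp36 had 18 CG dinucleotides, that of Zfp451 17, that of Zfp81 10 and that of Zfp445 5, against medians of 12 in the 158 members with an entry and 6 in all 27025 genes. Motifs were searched on both strands. The Zfp36 promoter held a CArG box, the serum response element core, starting 58 bases before the start site. The other 3 promoters held no match to it, and none of the 4 matched the AP-1 motif TGANTCA or the CRE motif TGACGTCA. A CArG box was found in 0.633% of the members' promoters and 1.62% of all genes' promoters, TGANTCA in 2.53% of the members' and 7.82% of all, and TGACGTCA in 5.70% of the members' and 1.77% of all.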

How the data were processed

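Raw counts of reads for each gene were deposited by the authors. The submitters' processing notes name STAR 2.7.10a, HTSeq 2.01 and DESeq2. Build, annotation and strand setting were not given in the sources used here. Levels of near-identical and of antisense genes are therefore uncertain. A normalised signal per gene, also deposited by the authors, served only to give their size factors. The table held 55414 identifiers. Library totals ran from 19446531 to 37957845 counts.

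The test was that of edgeR 4.0.16 under R 4.3.3 (TMM scaling, default expression filter, quasi-likelihood test) in 1 fit of the 14 batch 1 libraries, with Benjamini-Hochberg adjustment over 14633 genes and a threshold of 0.05. The scripts were tested on simulated data. The biological coefficient of variation was 5.46%. CPM are TMM-scaled. Length, GC content and coding sequences came from the longest GENCODE M21 transcript, matched by identifier. Members, gene lists and tests were chosen with earlier results of these data known. Genes named were called members, the 8 of highest mean CPM and members of known role. Alternatives included DESeq2 1.42.0, limma-voom from limma 3.58.1, other scalings and filters, each library left out and a replicate block. The GC correction, the final KRAB pattern and the GC classes were chosen after seeing the data. Promoters and motifs were handled in Python 3.11.15. RefSeq promoters matched 158 of 202 members.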

Additional observations from a re-analysis of the deposited data

Results flagged for a closer look

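In 5 of 123 groups of 4 libraries, 1 library stood apart from the other 3 by more than Dixon's 95% critical value for its gap over the group's range. Chance flags about 1 group in 20. Zfp36 had 12.65 CPM in MGO.53 replicate 2, where the other MGO.53 libraries had 9.378 to 9.814 CPM, and its Mel321-31 call was lost without that library. Zfp445 had 87.72 CPM in Mel321-31 replicate 1, where the other Mel321-31 libraries had 100.8 to 102.4 CPM. Zfp91 had 78.89 CPM in the same library, where the others had 90.72 to 92.83 CPM. Zfp568 had 28.98 CPM in Mel322-34 replicate 1, where the others had 31.55 to 32.04 CPM. Zfp410, an activator of Chd4, had 47.43 CPM in Mel322-34 replicate 4, where the others had 46.48 to 46.54 CPM.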

How the results depend on the processing

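Of 28 alternatives to each test, most kept the numbers of called members within 1.5 times. With Mel321-31 the 6 calls became 2 in all 15 libraries without a batch term, 2 with the length trend removed, 1 with the GC trend removed and 0 with the 95-transcript covariate, and 1 to 10 with 1 library left out. Over all genes, 517 calls became 91, 440, 265 and 5 in the same order, and 136 to 1238 with 1 library left out. With Mel322-34 the 8 calls became 13 by DESeq2, 1 with the length trend removed, 3 with the GC trend removed and 3 with the covariate, and 2 to 16 with 1 library left out. Over all genes, 1005 calls became 1351, 412, 558 and 371 in the same order, and 327 to 1451 with 1 library left out. Between Mel322-34 and Mel321-35 the 1 call became 2 by DESeq2 and 0 with the length trend removed. It became 0 to 1 with 1 library other than those of Mel321-35 left out. Over all genes, 38 calls became 144 of 7889 and 25 of 14633, and 12 to 127 with such a library left out. Between Mel321-31 and Mel321-35 the 0 calls became 1 without a filter on low counts, and 0 to 1 with 1 library other than those of Mel321-35 left out. Over all genes, 15 calls became 144 of 26649 without the filter, and 6 to 45 with such a library left out. The causes were not tested.

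The replicate block left 5 calls with Mel321-31 and 11 with Mel322-34, and 0 between Mel322-34 and Mel321-35. Over all genes it called 636, 1209 and 16 in the same order. Whether the numbers pair the libraries was not settled. Deviations correlated over 0.1 in 4 of 18 same-number pairs, and 4 of 14 libraries correlated best with their own number. Among replicates 3, Mel322-34 had 0.27 with Mel321-35 and 0.24 with MGO.53, and Mel321-35 had 0.18 with MGO.53. Same-number pairs ran from -0.21 to 0.27 and different-number pairs from -0.30 to 0.28. The 2 Mel321-35 libraries tested have mirrored deviations, so their correlations are opposite by construction.

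The median of the members with Mel321-31 was 0.0128 with the GC trend removed, against 0.0343 without that step. With Mel322-34 it was 0.0438 with the length trend removed and 0.0395 with the GC trend removed. With Mel321-35 it was 0.0104 with the GC trend removed, and 0.0004 to 0.0569 with 1 library left out. Between Mel321-31 and Mel321-35 it ran from -0.0157 to 0.0318.

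Sign changes were common among fold changes that had not passed. Over 39 named members in the 3 comparisons with MGO.53, 134 of 3276 values under the alternatives changed sign, in 45 of 117 fold changes, none of them a called one. They are given singly for 43 fold changes of called and other named members, a list set after these counts had been seen, in which there were 12. With the GC trend removed these were Zfp426 with Mel321-31 (-0.0179) and, with Mel321-35, Zfp141 (-0.0049), Zfp24 (-0.0134) and Zfp329 (-0.0190). With the covariate they were Zfp266 with Mel321-31 (-0.0435) and Zfp329 with Mel321-35 (-0.0380), and with the length trend removed Zfp106 with Mel322-34 (-0.0020). With 1 library left out, the Mel321-35 differences ran from -0.0255 to 0.1547 for Zfp141, -0.0542 to 0.2168 for Zfp266, -0.3115 to 0.3354 for Zfp329 and -0.0697 to 0.3694 for Zfp81. No call of a member changed sign under the alternatives run. At n = 2, Mel321-35 gave the least precise values.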
